A study of Caenorhabditis elegans with 4 samples.

Results

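Chromosome IV carried 1407 of the 7498 COH-3 peaks in the series-wide peak list of adult Caenorhabditis elegans, chosen solely because they lie on that chromosome. COH-3 was mapped by chromatin immunoprecipitation and sequencing (ChIP-seq) with a rabbit polyclonal antibody in 2 ChIP libraries, beside 2 input DNA libraries that have no values here. All animals were hermaphrodites of the strain fem-2(b245), genotype fem-2(b245)III, at 20 °C. The labels call them young adults that contain a germ line, while the growth protocol describes gravid adults. The gene fem-2 belongs to the sex determination pathway, and its loss feminizes the germ line; the germline state of these animals was not analysed here. Whole animals were used, no wild-type animals or animals lacking COH-3 are part of the comparison, and the labels do not say whether the 2 ChIP libraries came from separate cultures. On chromosome IV, ChIP replicate 1 had 331 of its 1813 peaks and ChIP replicate 2 had 648 of its 3332. Read depth is unknown for both.

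COH-3 is a kleisin, the subunit that closes the cohesin ring. Cohesin holds sister chromatids together, and meiotic forms of it with their own kleisins help build the chromosome axes along which homologues pair and recombine. In this worm COH-3 works in the germ line beside a closely related kleisin, COH-4. Chromosome IV is the main home of the worm's piRNA genes, which give rise to short RNAs that guide Piwi proteins and protect germline genomes from foreign and repetitive sequences. In the RefSeq gene table for assembly WBcel235, 14714 of 15363 piRNA genes (95.8%) are on IV. They lie largely in a pair of broad intervals, taken here as positions 4500000 to 7000000 (the left interval) and 13500000 to 17200000 (the right interval). Peak coordinates are on WormBase WS220. Genes at the peaks were not analysed here, since no annotation of that build was used.

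COH-3 peaks were spread along all of chromosome IV, at a density close to that of the other autosomes. Replicate 1 had 18.9 peaks per Mb on IV and 18.2 on the other 4 autosomes. Replicate 2 had 37.0 per Mb on IV and 37.2 on the other autosomes. The log2 ratios were 0.057 (95% exact interval -0.12 to 0.23) and -0.0072 (-0.13 to 0.12), and neither replicate passed (exact binomial test against the share of length, two-sided, adjusted p = 0.662 and p = 0.93 over 10 tests). Over both libraries IV carried 28.0 ± 12.8 peaks per Mb (SD, n = 2), a spread set by replicate 2 having 1.96 times as many IV peaks as replicate 1. In the series-wide list IV carried 80.4 peaks per Mb, against 83.0 on the other autosomes. Because nearby peaks are not independent and the intervals reflect counting error alone, the p-values here are too small where peaks cluster.

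Along the chromosome, peaks came in rises and troughs. In the 17 full bins of 1 Mb, replicate 1 had from 8 to 32 peaks with a median of 19, and replicate 2 had from 13 to 58 with a median of 37. The variance of the bin counts was 3.12 times their mean in replicate 1 and 3.53 times in replicate 2, where randomly scattered peaks would give values near 1. Other nuclear chromosomes ran from 1.27 (X) to 3.06 (I) in replicate 1 and from 1.79 (I) to 4.78 (III) in replicate 2. Such unevenness was therefore not particular to IV. Both libraries had one of their fullest bins from 13 to 14 Mb, with 31 peaks in replicate 1 and 58 in replicate 2. Both were also low from 10 to 11 Mb, with 10 and 13 peaks. That trough held the longest stretch without a peak in each replicate: 420 kb from 10263402 to 10683630 in replicate 1, and 334 kb from 10323889 to 10658230 in replicate 2. The libraries parted most from 6 to 7 Mb, where replicate 1 had 9 peaks, among its lowest values, and replicate 2 had 57, its second highest. The ratio of replicate 2 to replicate 1 was 6.33 in that bin, against a median of 2 over the full bins and a lowest value of 1.07 from 14 to 15 Mb.

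**Figure D1:**
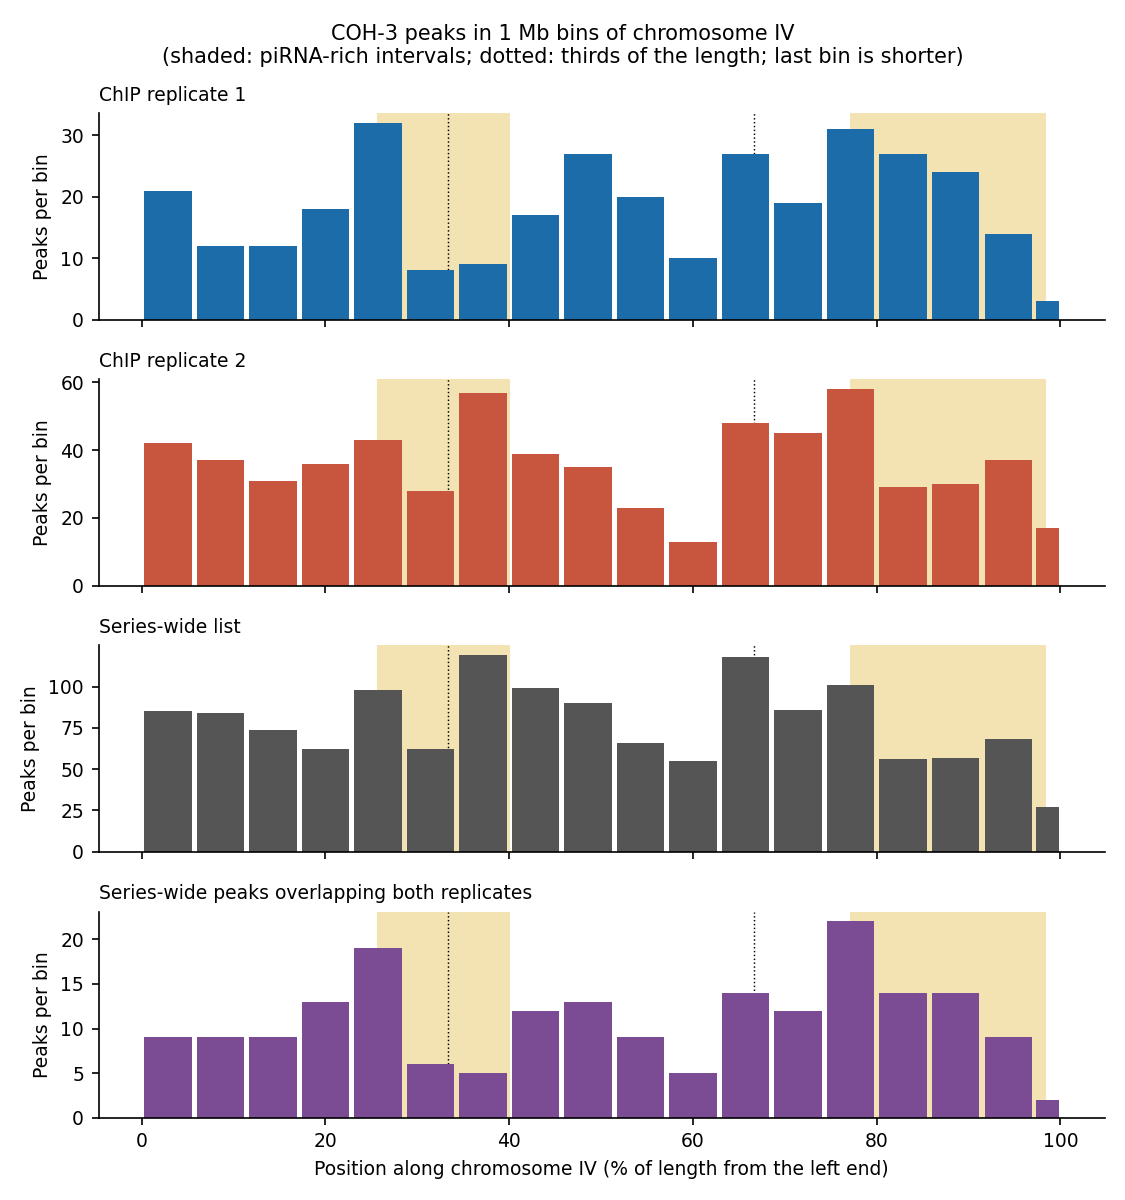
Number of COH-3 peaks (vertical axes) in each 1 Mb bin of chromosome IV, ordered by position in percent of the chromosome's length, in replicate 1, replicate 2, the series-wide list, and the series-wide peaks that overlap both replicates. Shading marks the piRNA-rich intervals and dotted lines the 3 equal segments; the bin from 6 to 7 Mb, the right-hand part of the left shaded interval, is low in replicate 1 with 9 peaks and high in replicate 2 with 57.

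The chromosome was then divided into 3 segments of equal length, since worm autosomes have a gene-dense centre and more repetitive, more recombining arms. On IV neither replicate had a central segment that differed from the arms beyond counting error. The central segment carried 18.0 peaks per Mb in replicate 1, against 19.4 in the outer segments, and 36.7 per Mb in replicate 2, against 37.2 in the outer segments. The log2 ratios were -0.11 (95% exact interval -0.45 to 0.23) and -0.020 (-0.26 to 0.22). Neither passed the two-sided exact binomial test (adjusted p = 0.708 and p = 0.94 over 24 tests). The right segment had 124 peaks and the left 102 in replicate 1, a log2 ratio of 0.28 (-0.11 to 0.67). In replicate 2 the right had 221 and the left 213, a log2 ratio of 0.053 (-0.22 to 0.33). This too did not pass (two-sided exact binomial test, adjusted p = 0.325 for replicate 1 and p = 0.884 for replicate 2). The series-wide list differed from both replicates here, with 92.9 peaks per Mb in the central segment and 74.2 outside it. The log2 ratio of that list was 0.33 (0.17 to 0.48), with an adjusted p = 0.000184 over its 12 exact binomial tests. In that list 271 of 542 peaks of the central segment (50%, 95% exact interval 45.7% to 54.3%) had no match in either replicate. The share was 47.2% in the left segment, 38.1% in the right and 46.1% over all nuclear chromosomes. These shares were not tested.

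Compared with the other autosomes, IV had a lower share of central peaks in replicate 1, and replicate 2 did not pass. There the central segment held 105 of 331 IV peaks (31.7%), against 469 of 1183 (39.6%) on the other autosomes (Fisher's exact test, two-sided, log2 odds ratio -0.50, adjusted p = 0.0216 over 10 tests). In replicate 2 it held 214 of 648 IV peaks (33.0%) and 802 of 2422 (33.1%) elsewhere (Fisher's exact test, adjusted p = 1). A difference was called only when both replicates passed, so none was called for the central share. In replicate 1 the share on V, 45%, was the highest of the autosomes and that on IV the lowest. The share on V was instead the lowest in replicate 2, at 28.2%. V passed in both replicates with opposite signs (log2 odds ratios 0.54 and -0.40, Fisher's exact test, adjusted p = 0.0216 for both).

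No difference in peak density between the piRNA-rich intervals and the rest of IV passed in either replicate. Together the intervals make up 35.4% of the length and held 108 of 331 peaks (32.6%) in replicate 1 and 232 of 648 (35.8%) in replicate 2. That is 17.4 peaks per Mb inside and 19.7 outside in replicate 1, a log2 ratio of -0.18 (95% exact interval -0.53 to 0.16). In replicate 2 it is 37.4 inside and 36.8 outside, a log2 ratio of 0.023 (-0.22 to 0.26). Neither passed (exact binomial test, two-sided, adjusted p = 0.602 and p = 0.87 over 6 tests). Over both libraries the density was 27.4 ± 14.1 peaks per Mb in the intervals and 28.3 ± 12.1 outside them (SD, n = 2). Density differences of a size inside these 95% exact intervals were not excluded. The left and right piRNA-rich intervals were not tested against each other.

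The left interval was where the replicates went apart. Replicate 1 had 31 peaks there, or 12.4 per Mb, against 19.7 outside both intervals, a log2 ratio of -0.67 (95% exact interval -1.26 to -0.12). Replicate 2 had 105 peaks there, or 42 per Mb, against 36.8 outside, a log2 ratio of 0.19 (-0.13 to 0.50). Neither passed after adjustment (exact binomial test, two-sided, adjusted p = 0.0855 and p = 0.602). The left interval held 16.2% of the IV peaks of replicate 2 and 9.37% of those of replicate 1 (adjusted p = 0.00661 over 2 two-sided Fisher's exact tests, added after the data were examined). That p-value cannot decide whether the shares differ. The comparison was chosen with the values known and counts clustered peaks as independent. Set against the same relative positions on the other autosomes, also added afterwards, the left interval was low in replicate 1 (log2 odds ratio -0.90, Fisher's exact test, adjusted p = 0.0129 over 6 tests) and not in replicate 2 (0.051, adjusted p = 0.803). For the right interval the log2 odds ratios were 0.43 in replicate 1 and -0.29 in replicate 2, and neither passed (Fisher's exact test, adjusted p = 0.16 for both).

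The right interval, the larger of the pair, was close to the rest of IV in both replicates. It had 77 peaks or 20.8 per Mb in replicate 1, a log2 ratio of 0.076 (95% exact interval -0.32 to 0.46). In replicate 2 it had 127 peaks or 34.3 per Mb, a log2 ratio of -0.10 (-0.40 to 0.19). Neither passed (two-sided exact binomial test, adjusted p = 0.826 for replicate 1 and p = 0.777 for replicate 2). In the series-wide list the right interval was sparser, at 64.1 peaks per Mb against 83.9 outside both intervals, a log2 ratio of -0.39 (-0.60 to -0.18) with an adjusted p = 0.000473 over its 3 exact binomial tests. How that list combines the libraries is not given in the sources used here, so it is not independent evidence. Beyond the right interval, the last 0.294 Mb of the chromosome held 2 peaks in replicate 1, 6 in replicate 2 and 6 in the series-wide list.

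**Figure D2:**
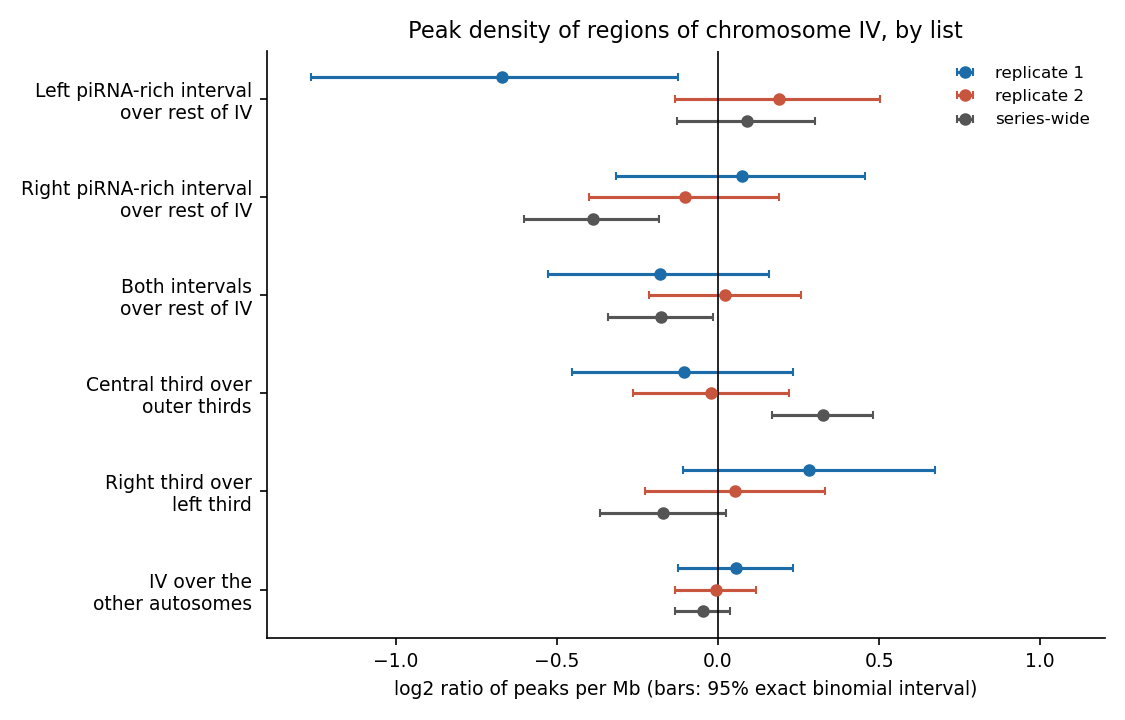
Log2 ratio of peaks per Mb (horizontal axis) for 6 comparisons on chromosome IV in replicate 1, replicate 2 and the series-wide list; points are the ratios and bars their 95% exact binomial intervals. The left piRNA-rich interval lies at -0.67 in replicate 1 and 0.19 in replicate 2, and no interval of replicate 2 excludes 0.

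By bases covered in place of peak number, the intervals stood apart in replicate 1 alone. Peaks covered 0.703% of the interval sequence in replicate 1, against 1.24% of the rest of IV. In replicate 2 they covered 3.15% of the intervals and 3.08% of the rest. By interval, replicate 1 covered 0.534% of the left and 0.817% of the right. It covered 0.917% of the stretch left of both intervals and 1.46% of that between them. Peaks of replicate 1 had a median width of 322 bp in the intervals, against 431 bp outside. The outside was mixed, with medians of 303 bp left of both intervals and 499.5 bp between them. The intervals were thus narrower than the stretch between them only. Replicate 2 had medians of 567 bp inside and 536 bp outside. Covered bases and widths were not tested.

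A single stretch held 25 of the 105 replicate 2 peaks in the left interval. When series-wide peaks less than 10 kb apart were joined, IV formed 470 groups, of which 184 were lone peaks and 10 had at least 10 peaks. The largest joined 56 series-wide peaks over 63.2 kb, from 6665533 to 6728714, and was chosen for description after its values were seen. The replicate 2 peaks in it covered 24.8 kb, and replicate 1 had 0 peaks there. It lies within one of the longest peak-free stretches of replicate 1, 348 kb from 6557013 to 6904831, in which 28 peaks of replicate 2 had their midpoint. Scores in the cluster were low to middling: the series-wide peaks there ran from 1.43 to 10.69 with a median of 4.29, against 6.24 for all IV peaks. The replicate 2 peaks there scored 140 at the median, against 156 on all of IV, and were 878 bp wide, against 544 bp.

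Without the cluster the left interval had 80 peaks in replicate 2, or 32 per Mb, and its log2 ratio to the rest of IV was -0.20. Its share of the IV peaks was then 12.8% in replicate 2 and 9.37% in replicate 1, a log2 odds ratio of 0.51. The comparison of these shares did not pass (two-sided Fisher's exact test, adjusted p = 0.274 over 2 tests). No conclusion is drawn from it, because the cluster was chosen after its values were seen and held 0 peaks of replicate 1. Leaving out the cluster could only lower the share in replicate 2. The largest cluster on III had 63 series-wide peaks over 69.0 kb, with 31 peaks in replicate 2 and 8 in replicate 1, and the largest on V had 25 over 29.4 kb, with 24 in replicate 2 and 4 in replicate 1. Among the largest clusters of the 6 nuclear chromosomes, the one on IV alone held no peak of replicate 1, but that on X held 1 and that on I held 2. An absence of replicate 1 was not particular to this cluster. The IV clusters from 409031 to 428077, 1595732 to 1637558 and 13430113 to 13445310 also held 0 peaks of replicate 1. The one from 11315381 to 11341485 held 6.

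**Figure D3:**
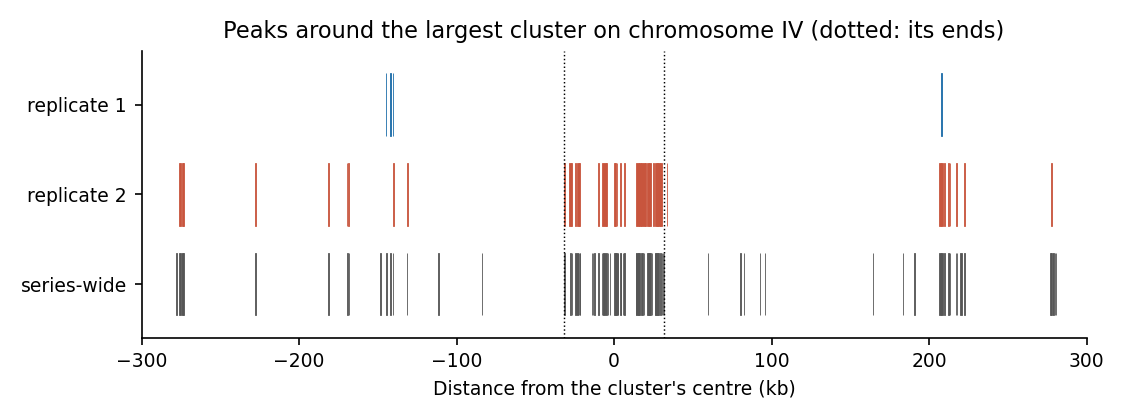
Peaks of replicate 1, replicate 2 and the series-wide list around the largest cluster on chromosome IV, as bars drawn to scale against the distance from the cluster's centre in kb; dotted lines mark its ends. Within the cluster lie 56 series-wide peaks and 25 of replicate 2, and 0 of replicate 1.

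Support in the 2 replicates was then counted for each series-wide peak of IV, with an overlap of at least 1 bp. Of the 1407 peaks, 196 (13.9%, 95% exact interval 12.2 to 15.8) overlapped both replicates, where the share over all nuclear chromosomes was 13.9%. Another 73 (5.19%) overlapped replicate 1 only, where the nuclear share was 6.58%, and 496 (35.3%) overlapped replicate 2 only, where it was 33.4%. The nuclear shares include X, at 21.3% for replicate 1 only and 20.8% for replicate 2 only. On the other autosomes these shares were 5.07% and 34.6%, close to IV. The remaining 642 (45.6%, 43.0 to 48.3) overlapped neither, where the share over all nuclear chromosomes was 46.1%. The shares found in both and in neither were close to those of the whole list. The 196 shared peaks were 949 bp wide and scored 34.9 at the median. The 642 unmatched ones were 209 bp wide and scored 4.28.

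In the other direction, 246 of the 331 IV peaks of replicate 1 (74.3%, with a 95% exact interval from 69.3% to 78.9%) met a peak of replicate 2, where the share over all nuclear peaks of replicate 1 was 69.0%. On the other autosomes the share was 72.7%. For replicate 2, 193 of 648 IV peaks (29.8%, 26.3 to 33.5) overlapped one of replicate 1, where the nuclear share was 31.3%. The other autosomes were at 29.9%. Neither direction set IV apart from the other autosomes (Fisher's exact test, two-sided, adjusted p = 0.64 for replicate 1 and p = 1 for replicate 2 over 10 tests). On IV the peaks of both libraries together spanned 583 kb, and 144 kb of this belonged to peaks of both. That is 78.5% of the bases of replicate 1 and 26.5% of those of replicate 2.

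Within IV, recurrence of replicate 1 peaks was higher in the piRNA-rich intervals, at 91 of 108 (84.3%, 95% exact interval 76.0 to 90.5), against 155 of 223 (69.5%, 63.0 to 75.5) outside. For replicate 2 the shares were 28.4% inside and 30.5% outside. These shares were not tested. Among series-wide peaks, 69 of 460 in the intervals (15.0%) overlapped both replicates, against 127 of 947 outside (13.4%), and the difference did not pass (two-sided p = 0.413, Fisher's exact test). By interval, 48 of 237 peaks in the right (20.3%, 15.3 to 25.9) overlapped both replicates and 21 of 223 in the left (9.42%, 5.92 to 14.0). The share over all nuclear chromosomes was 13.9%, and the difference between the intervals was not tested. The left interval includes the 56 peaks of the largest cluster. Replicate 1 had 0 peaks there, so none of the 56 could overlap both.

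Support was far more frequent at high values of the authors' peak score. How the series-wide list combines the libraries is not given, so its scores cannot be taken as independent of the replicates. In the highest score quartile of IV, 52.0% of series-wide peaks overlapped both replicates (95% exact interval 46.6 to 57.4) and 1.44% overlapped neither (0.468 to 3.32). In the lowest quartile 0.282% overlapped both (0.00715 to 1.56) and 79.1% neither (74.5 to 83.2). The other autosomes had 47.4% supported by both in the highest quartile. Median width was 658 bp in the highest quartile and 201 bp in the lowest, and a wider peak offers more sequence to overlap.

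**Figure D4:**
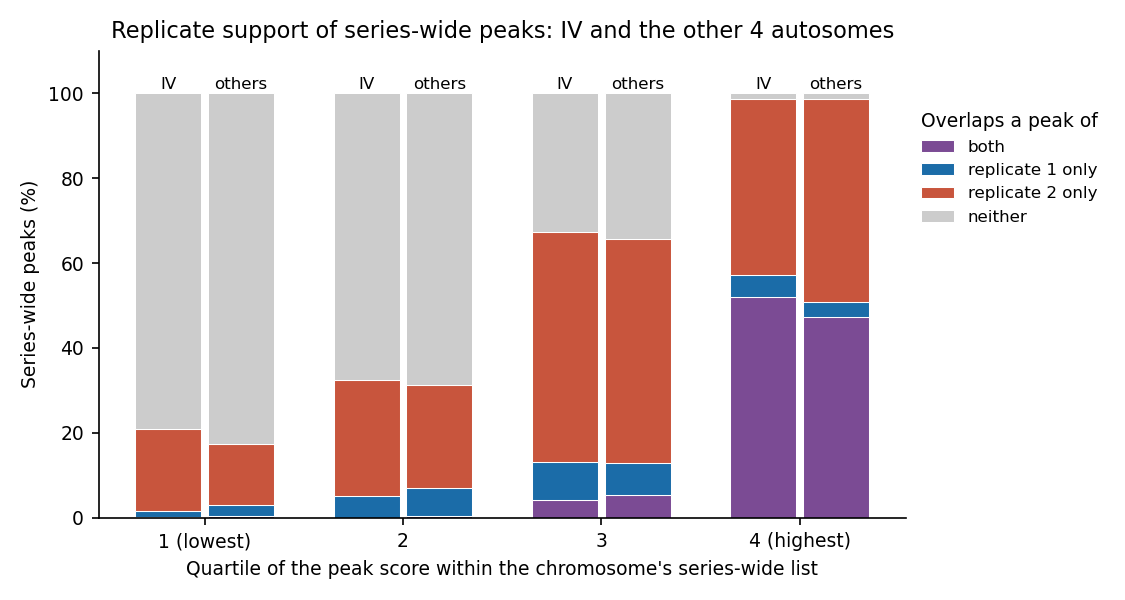
Share of series-wide peaks (vertical axis, percent) that overlap both replicates, replicate 1 only, replicate 2 only or neither, by quartile of the authors' peak score, for IV (left bar of each pair) and the other 4 autosomes (right bar). In the highest quartile 52.0% of IV peaks overlap both replicates, and in the lowest 79.1% overlap neither.

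Most IV peaks were narrow. The series-wide peaks of IV ran from 146 to 5579 bp, with a median of 290 bp and quartiles of 199 and 475 bp, against a median of 287 bp on the other autosomes. Peaks of at least 1000 bp numbered 134 (9.52%, 95% exact interval 8.04 to 11.2), where the share over all nuclear peaks was 9.09%. Scores had a median of 6.24 on IV and 6.24 on the other autosomes, with an upper quartile of 12.42 on IV and 11.51 elsewhere. Width and score rose together within each list, with Spearman's rho over IV peaks of 0.67 in the series-wide list (n = 1407), 0.79 in replicate 1 (n = 331) and 0.87 in replicate 2 (n = 648). These values describe peaks that share a library.

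The highest scores on IV fell to peaks of very different shape. A series-wide score of at least 100 was reached by 16 IV peaks (1.14%), and by 32 (0.592%) on the other autosomes, where the nuclear share was 0.867%. All 16 overlapped both replicates, and so did all 32 on the other autosomes. Of these, 9 were narrow, from 357 to 699 bp, and 7 were wider than 1000 bp. On the other autosomes 6 of the 32 were narrower than 1000 bp. The narrow ones on IV lay outside the central segment, 7 in the left and 2 in the right, whereas 6 of the 7 wide ones lay in the central segment. This split was made after the values were seen and was not tested. Some of these peaks were close neighbours, with narrow pairs 1.63 and 1.9 kb apart and wide ones 10.5 and 58.2 kb apart. The counts are therefore not of separate loci.

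**Figure D5:**
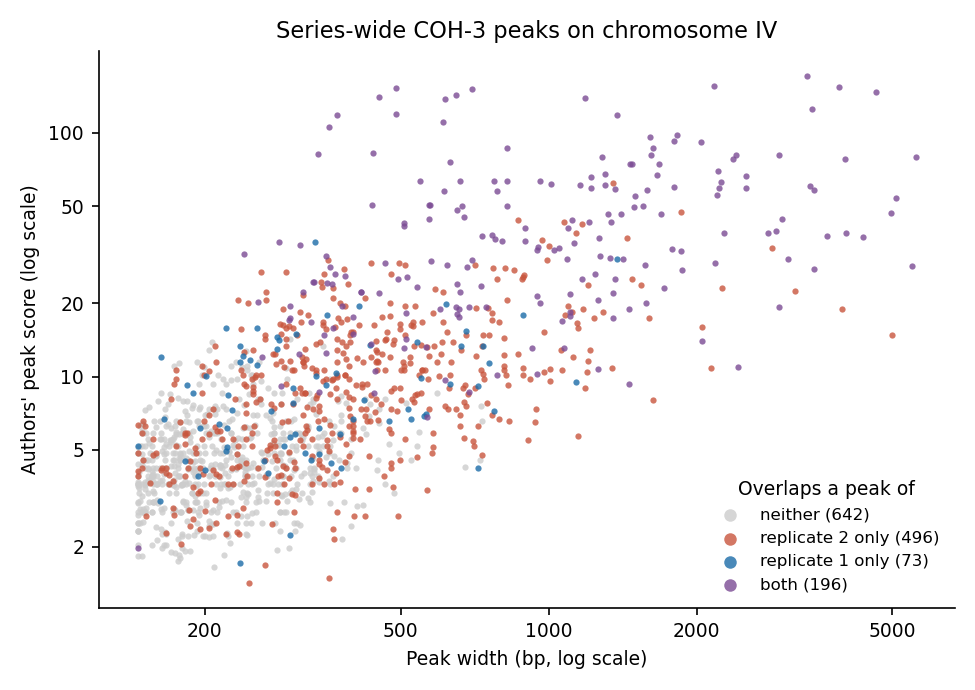
Authors' peak score (vertical axis, log scale) against width in bp (horizontal axis, log scale) for the 1407 series-wide peaks of chromosome IV, one point each, coloured by the replicates they overlap. The 196 peaks found in both replicates lie mostly at high scores, and those with a score of at least 100 comprise 9 narrow and 7 wide peaks.

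The strongest site was a wide peak from 11912894 to 11916252, 3359 bp across, with a series-wide score of 170.57, the sixth highest of the nuclear chromosomes. It matched 1 peak in each replicate, 3395 bp wide in replicate 1 and 3158 bp wide in replicate 2, both with a score of 3100, a value shared by 3 IV peaks in replicate 1 and 29 in replicate 2. A group of 3 further sites lay to its left, 10.5 kb and 58.2 kb apart. The site from 11399732 to 11401897 had a score of 154.86, and its replicate peaks scored 2793 in replicate 1 and 3100 in replicate 2. The site from 11337592 to 11341485 scored 153.36 and took in 2 peaks of replicate 1 and 3 of replicate 2. The site from 11322493 to 11327130, the widest of the 10 strongest at 4638 bp, scored 146.96 and was split into 4 peaks in replicate 1, where replicate 2 had 1. The last of the wide sites in the strongest 10, from 9196013 to 9197200, scored 139.12 over 1188 bp.

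The other 5 of the 10 strongest sites were short, and 4 of them came in close pairs. One pair lay in the left piRNA-rich interval, from 4725363 to 4725851 (489 bp, score 152.49) and from 4727749 to 4728396 (648 bp, score 142.58), 1.9 kb apart. Just to their left, a further peak found in both replicates, from 4720355 to 4720963, scored 110.14. The other pair lay left of the interval, from 3311169 to 3311621 (453 bp, score 140.63) and from 3313250 to 3313948 (699 bp, score 150.5), 1.63 kb apart. The remaining short site, from 16845238 to 16845853, was in the right piRNA-rich interval, with a score of 136.75 over 616 bp. The short sites ranked from 21 to 34 among the IV peaks of replicate 1 and from 69 to 92 in replicate 2, although they were in the series-wide top 10. The 4 strongest sites over 2000 bp ranked from 1 to 6 in replicate 1 and tied at rank 3 in replicate 2. The scales of the lists are not named in the files, so scores were compared within a list only.

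In the right piRNA-rich interval the next strongest sites found in both replicates were from 15530496 to 15530852, 357 bp with a score of 105.87, and from 13883428 to 13885251, 1824 bp with a score of 97.45. The peak of 1824 bp matched the second highest-scoring IV peak of replicate 2, at 3212, and ranked 61 in replicate 1, at 409. The widest series-wide peak of IV, 5579 bp from 14475697 to 14481275, was also in the right interval and scored 79.8. Replicate 2 had it as 1 peak of 5524 bp and replicate 1 as 7 separate peaks. The next widest, 5478 bp from 4416395 to 4421872, had a single wide peak in each replicate, 5111 bp across in replicate 1 and 5799 bp across in replicate 2, but scored only 28.26. The third, 5091 bp from 11070838 to 11075928, scored 54.07.

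Peaks were often close neighbours. The median gap between successive IV peaks was 3614 bp in the series-wide list, and 33.6% of gaps were shorter than 1 kb. In replicate 1 the median gap was 21.2 kb and in replicate 2 it was 11.3 kb, with 25.2% and 21.5% of gaps shorter than 1 kb. The longest stretches of IV without a series-wide peak were 153 kb from 17339449 to 17492415, near the right end, 151 kb from 3748767 to 3899790, and 134 kb from 8735619 to 8869277. By midpoint, the first and the last held 0 peaks of either replicate, and the second held 1 of replicate 1 and 0 of replicate 2.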

How the data were processed

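The submitters' processing notes name BWA, without a version, and the build ce10. The authors deposited peak lists on WormBase WS220, per the file headers; the source column names MACS for each replicate and MACS v2 for the series-wide list. The deposited score of every peak is on a scale that the files leave unnamed. For thresholds, use of input, duplicate removal and the making of the series-wide list, the method is not given in the sources used here. Lists called with different settings can differ in number and width of peaks. There were 0 columns of other samples.

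Analyses used Python 3.11.15, numpy 2.4.6, scipy 1.17.1, pandas 2.3.3 and matplotlib 3.10.9. Peaks were placed by midpoint; chromosome length was taken as the last base of any peak (17.5 Mb for IV). Mitochondrial peaks were left out of comparisons. Densities were tested with two-sided exact binomial tests and shares with two-sided Fisher's exact tests, with Benjamini-Hochberg adjustment over chromosomes and replicates, or over the 3 interval contrasts in both replicates. A call needed an adjusted p under 0.05 with the same sign in each replicate. Intervals are 95% Clopper-Pearson intervals. The tests take peaks as independent. Only the density test for both piRNA-rich intervals together was tried on simulated data, with peaks placed independently. That setting lacks the clustering of the real peaks, so it does not show how the tests behave with clustering. The sites described were the 10 highest-scoring series-wide peaks found in both replicates, the 3 highest in each piRNA-rich interval, the 3 widest and the 3 longest gaps. Members, regions and lists were chosen with earlier results of these data known. Alternatives covered score thresholds, merging, overlap rules, region bounds, covered bases, single lists and the largest cluster left out.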

Additional observations from a re-analysis of the deposited data

How the results depend on the processing

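With 2 libraries of unknown depth, agreement of the replicates is the only check. No difference in peak density or central share was called in both replicates under any alternative that used both lists. Of 77 alternative values for 12 results, 49 with a test kept their direction and call and 2 without a test moved by less than their error; the cause of the others was not tested. Values for the central share against other autosomes, support and recurrence are log2 odds ratios. The other values are log2 ratios unless given as percent. A single list was called when its own adjusted p passed. With the series-wide list, IV against the other autosomes was at -0.046, the central segment at 0.33 (called), right against left at -0.17, the central share against other autosomes at 0.041, both piRNA-rich intervals at -0.18 (called), the left at 0.089 and the right at -0.39 (called). The right interval, -0.013 as the mean of the replicates, was at 0.053 in the better-scoring 50% of peaks, 0.065 after merging peaks closer than 10 kb and 0.0076 with bounds drawn in by 0.25 Mb. By covered bases both intervals were at -0.39 and the right at -0.29. With one replicate left out, IV against the other autosomes ranged from -0.0072 to 0.057, the central share from -0.50 (replicate 1, called) to -0.0058, both intervals from -0.18 to 0.023, the left from -0.67 (replicate 1, called over 3 tests and not over 6) to 0.19, and the right from -0.10 to 0.076. Support in the intervals ranged from -0.12 (replicate 1) to 0.50 (replicate 2, called). It was at -0.18 when 50% of the peak had to be covered, which lowered the share found in both replicates to 8.46%. Recurrence of replicate 1 peaks against the other autosomes was at -0.16 by midpoints within 500 bp, -0.15 after merging at 500 bp and 0.76 in the better-scoring 50% (called), where replicate 2 was at 0.36. Leaving out the largest cluster, chosen after the data were examined, gave -0.44 for the left interval. No paired analysis was possible because values are at hand for neither of the same-numbered input libraries.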
